A study of Mus musculus with 48 samples.

Results

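Amygdala-projecting pyramidal cells of ventral CA1 in the mouse were compared with general ventral CA1 pyramidal cells, gene by gene. The members were all 37620 genes of the count table, of which 19468 had at least 1 read in these 6 libraries and 12981 were read deeply enough to be tested. The series sequenced 16 populations of hand-sorted fluorescent hippocampal neurons, 48 libraries in all, and each group here had 3 libraries. Both groups were dissected as CA1 pyramidal cells of the ventral hippocampus, and the amygdala-projecting group was further defined by a projection to the amygdala. How those cells were labelled, whether the general ventral group also held cells that project to the amygdala, and the strain, age and sex of the animals are not given in the sources used here. Another ventral group, pyramidal cells that project to the nucleus accumbens, was fitted beside them, and cells that project to the postsubiculum were set against dorsal CA1 cells as the matching pair at the other end of the hippocampus.

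CA1 pyramidal cells are the main output neurons of the hippocampus. Cells at its ventral end send axons to the basolateral amygdala, the nucleus accumbens, the prefrontal cortex and the hypothalamus, and this end is known for its part in anxiety, fear memory and motivation. Cells with different targets lie intermingled in the same layer, so a sort by target samples some of the cells that a sort by place mixes together.

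Genes higher in amygdala-projecting cells included receptors for serotonin, histamine and acetylcholine (Htr2a, Hrh3, Chrna4), transcription factors (Rorb, Foxo1, Rreb1), machinery of transmitter release (Vamp2, Syn1, Slc17a7) and 11 of the 12 messenger RNAs of the mitochondrial genome tested. Genes higher in general ventral cells included the adhesion molecules Alcam, Cntnap2 and Chl1, subunits of glutamate and GABA receptors (Grin2a, Gria2, Gabrb2), the glucocorticoid receptor Nr3c1 and the Notch-family protein Dlk1. In all, 309 genes were called, that is 2.38% of those tested, at an adjusted p under 0.05 in edgeR's quasi-likelihood test over the 9 libraries of the 3 ventral groups. Of these, 207 (1.59%) were higher in amygdala-projecting and 102 (0.786%) in general ventral cells, and 137 (1.06%) differed at least 3-fold. The median log2 fold change, amygdala-projecting minus ventral, was 0.07 over all genes tested. It was 1.52 over the genes called higher and -1.45 over those called lower, which describes the selection. Groups that did not overlap were found in 3342 genes tested (25.7%), and in 308 of the 309 called. Leaving out 1 library at a time left 100 to 243 calls. The count was 100 without ventral replicate 2, 110 without ventral replicate 1, 188 without ventral replicate 3 and 166 without amygdala-projecting replicate 3.

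**Figure D1:**
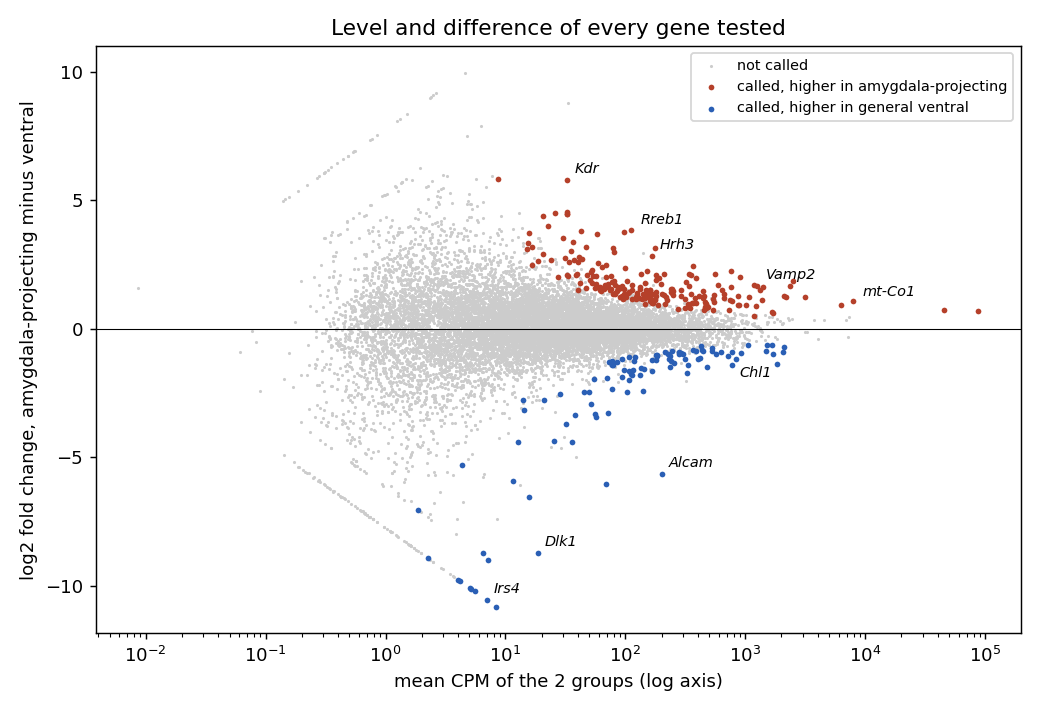
The x axis gives the mean CPM of amygdala-projecting and ventral cells (log axis) and the y axis the log2 fold change between them, with 1 point for each gene tested. Of the called genes, 207 lie above 0 (red) and 102 below (blue), and Alcam stands apart among the lower ones at its level.

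The amygdala-projecting libraries held 14166697 to 20907590 reads in genes and the ventral libraries 5116568 to 8354457. Values below are CPM, read counts scaled to the size of the library, here by TMM over all 48 libraries. Genes with at least 1 read numbered 13886 to 14545 in amygdala-projecting and 14974 to 15517 in the shallower ventral libraries. ERCC spike-in RNA, added in proportion to the cells, took 0.637% to 1.19% of gene and spike-in reads in amygdala-projecting and 2.72% to 8.29% in ventral libraries. Replicates were less alike in amygdala-projecting cells (r = 0.869 to 0.893 over log2 CPM across genes) than in ventral cells (0.944 to 0.964), and libraries of different groups correlated at 0.856 to 0.911. The median SD of log2 CPM across genes was 0.58 in amygdala-projecting and 0.34 in ventral cells, and the biological coefficient of variation of the fit was 0.744. In libraries made from pooled cells, fewer cells that express a gene and less of its RNA per cell cannot be told apart. The series calls its libraries biological replicates but no label ties each of them to an animal of its own. The p-values therefore speak of the scatter among these samples, which may be technical.

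Markers were first checked against the labels. The CA1 marker Fibcd1 stood at 515, 636 and 722 CPM in amygdala-projecting and 223, 281 and 404 CPM in ventral libraries, and Mpped1 at 257, 306 and 231 CPM against 202, 226 and 278 CPM. Of 9 CA1 markers present, Pou3f1 was at 0 in both groups in the count table, while on the authors' FPKM scale its means were 9.09 ± 14.4 and 9.59 ± 0.158 (SD, n = 3 each). The sum of the CA1 list was 2250 to 2650 CPM in amygdala-projecting and 2050 to 2150 CPM in ventral libraries. Defining markers of astrocytes (Aldh1l1, Gjb6), oligodendrocytes (Mag, Cldn11, Opalin), their precursors (Pdgfra, Olig2, Sox10) and microglia (Cx3cr1, C1qa, Tmem119) were at 0 in all 6 libraries, and edgeR called none of the 9 members of those lists that were tested (1 at an unadjusted p under 0.05). The astrocyte list summed to 4.52 to 29.9 CPM in amygdala-projecting and 5.89 to 12.4 CPM in ventral libraries. The oligodendrocyte list, mostly Mbp, summed to 31.1 to 51 CPM against 50.4 to 69.6 CPM, and the precursor list to 1.77 to 19.4 CPM against 0 to 1.62 CPM. The microglia list summed to 1.2 to 7.42 CPM against 1.73 to 5.14 CPM. The CA3 list summed to 406 to 523 CPM in amygdala-projecting and 812 to 916 CPM in ventral libraries, where Dkk3 was most of the sum. Dkk3, which encodes a secreted protein of the Dickkopf family, stood at 182, 308 and 269 CPM against 713, 778 and 639 CPM and was the only called member of that list (edgeR adjusted p = 0.00421). The subiculum list summed to 55.4 to 72 CPM in amygdala-projecting and 8.88 to 16.6 CPM in ventral libraries. Of its 5 tested members only Rorb, described below, was called. The list median log2 fold change was -0.25, and 2 of the 5 had a log2 fold change above 0. Groups did not overlap in 2 members with amygdala-projecting cells higher and in 2 with ventral cells higher.

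Genes of dentate and GABAergic neurons were also checked. Gad2, a GABA-synthesising enzyme, stood at 12.8, 11.2 and 14.4 CPM in ventral and at 0.26, 0.371 and 0.0515 CPM in amygdala-projecting libraries, and Prox1, a marker of dentate granule cells, at 2.76, 2.17 and 3.58 CPM against 0, 0 and 0.0515 CPM. Neither passed the test (edgeR adjusted p = 0.0567 and 0.136). The 8 dentate granule markers summed to 7.97 to 18.8 CPM in ventral and 0 to 3.97 CPM in amygdala-projecting libraries. Xist, the RNA of the inactive X chromosome, was at 6.39, 6.16 and 5.54 CPM in ventral and at 0 in amygdala-projecting libraries, while the Y-linked gene Ddx3y was read in all 6 at 28.4 to 46.7 CPM. On the authors' FPKM scale Xist was listed at 0 in every library of both groups. The GABAergic list summed to 18.8 to 37.8 CPM in ventral and 35.4 to 60.4 CPM in amygdala-projecting libraries. The part of the genes of these marker lists in the results was not tested.

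The ranked genes were those with the largest fold change among called genes of at least 10 CPM whose groups did not overlap, 15 in each direction. Htr2a, the serotonin 2A receptor, stood at 34.3, 82.9 and 69.6 CPM in amygdala-projecting and 3.51, 3.99 and 1.04 CPM in ventral libraries. Its log2 fold change was 4.48 ± 0.76 (SE), a 22.2-fold difference (edgeR adjusted p = 0.00421). Amygdala-projecting replicate 1 was the lowest of its group and still lay far above every ventral library. Foxo1, a forkhead transcription factor held in check by insulin signalling, stood at 216, 154 and 171 CPM against 9.02, 4.53 and 26.2 CPM. The difference was 13.6-fold (log2 fold change 3.76 ± 0.52 SE, edgeR adjusted p = 0.000866). Ventral replicate 3 was the highest of its group and lay below every amygdala-projecting library. Rreb1, a zinc-finger transcription factor of the Ras pathway, stood at 201, 138 and 287 CPM against 12.3, 14.7 and 16.7 CPM, 14.4-fold apart (edgeR adjusted p = 0.000166). Accumbens-projecting libraries held 184, 321 and 722 CPM of Rreb1 and overlapped the amygdala-projecting ones. These 3 genes kept their call in each of the 6 fits that left out a library.

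Rorb, a nuclear receptor of the retinoid-related orphan family, stood at 46.7, 59.4 and 42.6 CPM in amygdala-projecting and 0.251, 1.09 and 5.08 CPM in ventral libraries (22.9-fold, edgeR adjusted p = 0.0139). Ventral replicate 3 came nearest to the amygdala-projecting libraries and still lay far below them. Gng4, a G protein gamma subunit, stood at 139, 57.8 and 124 CPM against 2.76, 10.3 and 12 CPM (12.8-fold, adjusted p = 0.00403), and Nptxr, the receptor of neuronal pentraxins at synapses, at 25.9, 75.2 and 25.4 CPM against 1.13, 3.08 and 3.81 CPM (15.9-fold, adjusted p = 0.00462). Amygdala-projecting replicate 2 was the lowest of its group for Gng4 and the highest for Nptxr. Cdkn1a, the cell cycle inhibitor p21, Cryab, a small heat shock protein of the crystallin family, and Phlda1 were 22.2-, 20.7- and 14-fold higher (adjusted p = 0.0100, 0.0249 and 0.00800). Cryab was at 0 in ventral replicate 1 and between 33.2 and 47.5 CPM in amygdala-projecting libraries. Stard5, a lipid-transfer protein, was 13.2-fold higher, at 28.2 to 30.7 CPM in amygdala-projecting libraries (adjusted p = 0.0272). The remaining ranked genes were Kdr and Gpc3, described with the vascular and matrix genes, Tacr3 with the receptors, Col5a1 with the matrix and Unc5d with the guidance genes. Gng4 and Nptxr kept their call whichever library was left out. Rorb and Phlda1 lost theirs without ventral replicate 1 or 2, Cdkn1a without ventral replicate 1, Cryab without ventral replicate 2 or amygdala-projecting replicate 2 or 3, and Stard5 in each of the 6 omissions.

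**Figure D2:**
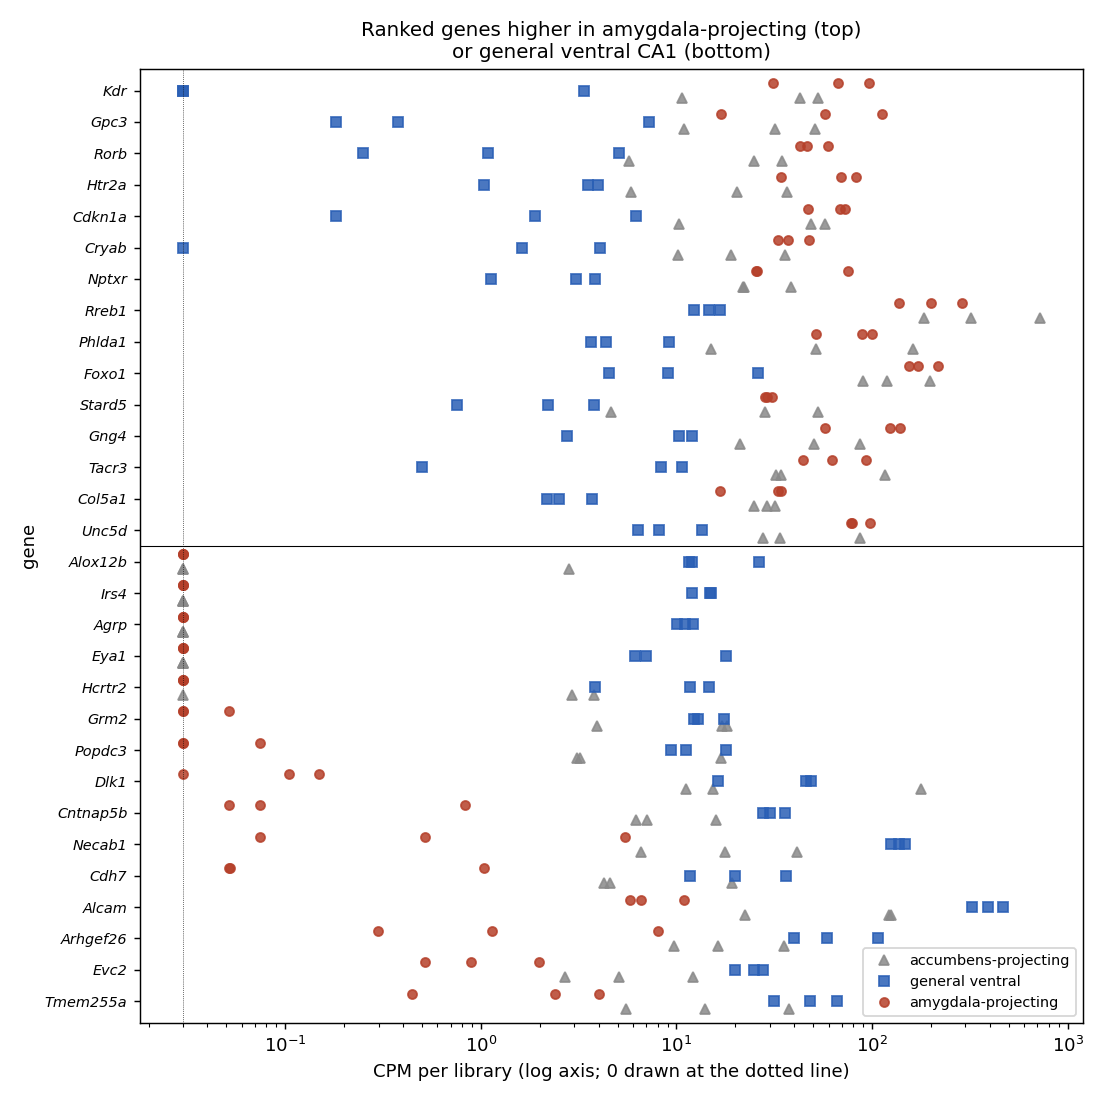
The x axis gives CPM on a log axis and each row is 1 ranked gene, with 3 libraries each of amygdala-projecting (red circles), general ventral (blue squares) and accumbens-projecting cells (grey triangles). Red and blue do not overlap in any row, and most grey triangles of the upper 15 rows lie near the red circles.

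In the other direction Alcam, which encodes the adhesion molecule CD166 that guides and bundles axons, stood at 6.62, 5.78 and 11 CPM in amygdala-projecting and 464, 392 and 325 CPM in ventral libraries. Every ventral library lay far above every amygdala-projecting one. The log2 fold change was -5.64 ± 0.55 (SE), a 50-fold difference (edgeR adjusted p = 4.31e-05), and the call held whichever library was left out. Across the other 8 CA1 groups Alcam ranged from 89.7 CPM in accumbens-projecting to 374 CPM in intermediate cells, so the amygdala-projecting mean of 7.79 ± 2.79 CPM (SD, n = 3) was the lowest of 10. On the authors' FPKM scale the means were 1.92 ± 0.737 and 150 ± 52.2 (SD, n = 3 each). Necab1, a neuronal calcium-binding protein, stood at 5.47, 0.0741 and 0.515 CPM against 148, 125 and 137 CPM (66.3-fold, edgeR adjusted p = 0.00622). Amygdala-projecting replicate 1 held most of its reads in that group. Dlk1, a membrane protein of the Notch ligand family, had 4 reads in all in amygdala-projecting libraries and stood at 46, 48.9 and 16.3 CPM in ventral ones (421-fold, adjusted p = 0.00133). Both calls held whichever library was left out.

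Several genes were at or near 0 in amygdala-projecting cells. Cntnap5b, a contactin-associated protein, stood at 0.833, 0.0741 and 0.0515 CPM against 27.7, 35.7 and 29.9 CPM (92.3-fold, edgeR adjusted p = 0.00246). Grm2, the presynaptic metabotropic glutamate receptor mGluR2, had 1 read in 1 of the 3 amygdala-projecting libraries and 17.6, 12.3 and 12.8 CPM in ventral ones. Counting error alone places its ratio between 134 and 29700 (95% exact binomial interval, adjusted p = 0.000992). Popdc3, of the Popeye family of cyclic AMP binding proteins, likewise had 1 read, and its ratio lies between 113 and 25300 (adjusted p = 0.00533). Alox12b, a lipoxygenase, Agrp, the agouti-related peptide, Eya1, a transcriptional co-activator, Hcrtr2, the orexin 2 receptor, and Irs4 had no read in any amygdala-projecting library. Against a floor of 3 reads per library they were at least 93.8-, 62.3-, 58.5-, 56.8- and 78.4-fold lower than in ventral cells (edgeR adjusted p = 0.0339, 0.0227, 0.0298, 0.0382 and 0.0132). Grm2 had its highest mean in dentate granule cells, 183 CPM in the dorsal ones, and Eya1 reached 195 CPM in SST interneurons. Outside ventral, intermediate and superficial CA1, the highest mean of Agrp in any population was 0.193 CPM, in distal CA1. Reads of PCR-amplified libraries are not independent molecules, so floors and intervals cover counting error only.

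Cntnap5b, Grm2 and Popdc3 kept their call whichever library was left out. Alox12b, Agrp, Eya1 and Hcrtr2 lost it in each of the 6 omissions, and Irs4 in the 3 that left out a ventral library. In all, 97 tested genes had no read in the amygdala-projecting libraries, of which 8 were called and 5 reached 10 CPM in ventral cells. The reverse held for 31 genes with no read in ventral libraries, none of them at 10 CPM. The edgeR test called 0 of these 31, and 16 had an unadjusted p under 0.05. The last ranked genes were Cdh7, a cadherin, Arhgef26, a guanine nucleotide exchange factor, Evc2, a ciliary protein of the hedgehog pathway, and Tmem255a. They stood at 0.381 ± 0.569 CPM, 3.17 ± 4.27 CPM, 1.13 ± 0.760 CPM and 2.29 ± 1.79 CPM in amygdala-projecting cells and at 22.7 ± 12.6 CPM, 68.5 ± 34.5 CPM, 24.2 ± 3.98 CPM and 48.5 ± 17.2 CPM in ventral cells (SD, n = 3; edgeR adjusted p = 0.0179, 0.0182, 0.0151 and 0.0114). Tmem255a kept its call whichever library was left out. Cdh7 and Arhgef26 lost theirs without ventral replicate 1 or 2 or amygdala-projecting replicate 3, Cdh7 also without amygdala-projecting replicate 1. Evc2 lost it in all omissions but that of amygdala-projecting replicate 1.

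Among receptors for modulators, 3 of 29 tested genes of the monoamine and acetylcholine list (10.3%, against 2.38% of all genes) were called. All 3 were higher in amygdala-projecting cells, and the list median log2 fold change was 0.61 against 0.07 over all genes. That median ran from 0 to 0.56 when 1 library was left out, and was 0 without amygdala-projecting replicate 3. Besides Htr2a these were Hrh3 and Chrna4. Hrh3, the histamine H3 receptor that restrains transmitter release, stood at 269, 330.2 and 283 CPM in amygdala-projecting and 33.2, 38 and 53 CPM in ventral libraries. The groups lay far apart, with a log2 fold change of 2.84 ± 0.33 (SE) and an edgeR adjusted p of 0.000199. Chrna4, a subunit of the main brain nicotinic receptor, stood at 114, 98.1 and 218 CPM against 11.2, 13.4 and 30.0 CPM (log2 fold change 2.99 ± 0.56 SE, adjusted p = 0.00914). Hrh3 kept its call whichever library was left out, and Chrna4 lost it without ventral replicate 1 or 2 or amygdala-projecting replicate 3. Accumbens-projecting cells held 238, 157 and 435 CPM of Hrh3, and of the other 8 CA1 groups ventral cells had the highest mean.

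Of 30 tested receptors for peptides and hormones 1 rose and 2 fell (10% called, against 2.38% of all genes), with a median of -0.05. Tacr3, the neurokinin B receptor, stood at 62.1, 44.5 and 93.5 CPM in amygdala-projecting and 0.501, 8.33 and 10.6 CPM in ventral libraries (10.4-fold, edgeR adjusted p = 0.0307). Dorsal, proximal, distal, deep and postsubiculum-projecting cells had means of at most 0.0247 CPM of it. Nr3c1, the glucocorticoid receptor that responds to stress hormones, stood at 37.9, 70.7 and 60.2 CPM against 181, 197 and 146 CPM (3.08-fold lower, adjusted p = 0.0100), and the orexin receptor Hcrtr2 is given above. The 8 CA1 groups other than amygdala- and accumbens-projecting cells held means of 132 to 211 CPM of Nr3c1. Tacr3 kept its call without ventral replicate 3 alone, and Nr3c1 lost it without ventral replicate 1 or 2.

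Neuropeptides and granins had 2 of 19 tested members higher and 1 lower (15.8% called, against 2.38% of all genes), with a median of -0.15. Grp, gastrin-releasing peptide, a marker of ventral CA1, stood at 292, 169.7 and 170.1 CPM in amygdala-projecting and 90.4, 66.3 and 97.2 CPM in ventral libraries (log2 fold change 1.32 ± 0.27 SE, edgeR adjusted p = 0.0139). Pcsk1n, the precursor of an inhibitor of prohormone convertase 1, stood at 58.2, 123 and 74.9 CPM against 15.3, 15 and 25.1 CPM (log2 fold change 2.22 ± 0.47 SE, adjusted p = 0.0179). Cpe, the carboxypeptidase that trims peptide hormones, fell by 0.62 on the log2 scale, from 2024 ± 279 CPM to 1309 ± 205 CPM (adjusted p = 0.0312). Grp lost its call without ventral replicate 1 or 2 or amygdala-projecting replicate 1, Pcsk1n without ventral replicate 1 or 2 or amygdala-projecting replicate 2 or 3, and Cpe in all omissions but that of amygdala-projecting replicate 1.

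Among ionotropic and metabotropic glutamate receptors 3 of 23 tested (13.0%, against 2.38% of all genes) were called, all lower. The list median of -0.06 lay near that of all genes. Grin2a, the GluN2A subunit of NMDA receptors, stood at 234, 297 and 212 CPM in amygdala-projecting and 598, 626 and 472 CPM in ventral libraries (log2 fold change -1.18 ± 0.21 SE, edgeR adjusted p = 0.00660). Gria2, the AMPA receptor subunit that sets calcium permeability, stood at 1649, 1577 and 1580 CPM against 2731, 2544 and 2550 CPM (log2 fold change -0.69 ± 0.14 SE, adjusted p = 0.0144). Neither pair of groups overlapped, and the amygdala-projecting mean was the lowest of the 10 CA1 groups for both. Accumbens-projecting cells had means of 261 ± 57.6 CPM of Grin2a and 1796 ± 364 CPM of Gria2 (SD, n = 3). Neither gene was called between amygdala- and accumbens-projecting cells (edgeR adjusted p = 0.93 and 0.718). The third called glutamate receptor was Grm2. Of 17 GABA receptor genes tested 2 (11.8%) were called, both lower, and the list median was -0.85. Gabrb2, a subunit of the common synaptic GABA-A receptor, stood at 167, 194 and 172 CPM against 472, 498 and 474 CPM (log2 fold change -1.43 ± 0.30 SE, adjusted p = 0.0167). The groups did not overlap in 12 of the 17 genes, 11 of them with ventral cells higher, against 25.7% of all genes. Grin2a lost its call without ventral replicate 2, Gria2 without ventral replicate 1 or 2 or amygdala-projecting replicate 2 or 3, and Gabrb2 in all omissions but that of ventral replicate 3.

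Of 27 voltage-gated sodium and calcium channel genes tested 2 fell (7.41%), with a median of -0.14, and of 64 potassium and HCN channel genes 2 rose (3.12%, near the 2.38% of all genes), with a median of -0.01. Cacna1e, the R-type calcium channel, stood at 819, 908 and 729.7 CPM in amygdala-projecting and 1414, 1205 and 1217 CPM in ventral libraries (log2 fold change -0.63 ± 0.15 SE, edgeR adjusted p = 0.0289). Cacng3, an auxiliary subunit that carries AMPA receptors to synapses, stood at 0.625, 1.48 and 6.49 CPM against 27.1, 24.8 and 25.6 CPM (log2 fold change -3.15 ± 0.75 SE, adjusted p = 0.0368). Kcnip3, a calcium sensor of A-type potassium channels, and Kcng1, a silent potassium channel subunit, rose from 86.6 ± 6.76 CPM to 199 ± 25.6 CPM and from 58.4 ± 7.08 CPM to 157 ± 36 CPM (adjusted p = 0.0279 and 0.0402). None of these calls held in every omission. Kcnip3 and Kcng1 lost theirs in each of the 6 omissions, Cacna1e in all but that of amygdala-projecting replicate 2 and Cacng3 in all but that of amygdala-projecting replicate 3.

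Cell adhesion genes moved in both directions, 6 of 73 tested higher and 9 lower (20.5% called, against 2.38% of all genes), with a list median of -0.28. Besides Alcam, Cntnap5b and Cdh7, the lower genes included Chl1 and Cntnap2. Chl1, a close homologue of the L1 axon adhesion molecule, stood at 552, 476 and 489 CPM in amygdala-projecting and 1194, 1133 and 1152 CPM in ventral libraries (log2 fold change -1.19 ± 0.16 SE, edgeR adjusted p = 0.000594). Cntnap2, which clusters potassium channels along axons, stood at 41, 52.5 and 37.7 CPM against 242, 290.4 and 172 CPM (log2 fold change -2.41 ± 0.34 SE, adjusted p = 0.000992). Libraries of Chl1 lay close together within each group, and the groups did not overlap for either gene. Among the higher genes, Pcdh15, a protocadherin best known from hair cells of the inner ear, stood at 94, 73.2 and 57.7 CPM against 12, 10.7 and 11.3 CPM (log2 fold change 2.73 ± 0.38 SE, adjusted p = 0.000963). Lsamp and Negr1, which belong to the same small family of neural cell surface molecules, rose from 466 ± 65.5 CPM to 1013 ± 80.3 CPM and from 333 ± 96.6 CPM to 732 ± 181 CPM (adjusted p = 0.00409 and 0.00914). Lrrtm3, a postsynaptic organiser, rose 6.05-fold (adjusted p = 0.0107). Chl1, Cntnap2, Pcdh15 and Lsamp kept their call whichever library was left out, Negr1 and Lrrtm3 lost theirs without ventral replicate 1 or 2, and Lrrtm3 also without amygdala-projecting replicate 1.

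Of 56 axon guidance genes tested 2 rose and 3 fell (8.93% called, against 2.38% of all genes), with a median of -0.06. Unc5d, a netrin receptor, stood at 97.1, 78.2 and 79.1 CPM in amygdala-projecting and 8.15, 6.34 and 13.5 CPM in ventral libraries (9.1-fold, edgeR adjusted p = 0.00205). Slit2, a repellent ligand of Robo receptors, rose from 169 ± 31.3 CPM to 411 ± 159 CPM (adjusted p = 0.0352). Nrp1, the neuropilin that binds class 3 semaphorins and VEGF, stood at 10.6, 5.78 and 14 CPM against 103, 101 and 99 CPM (9.89-fold lower, adjusted p = 0.0338), and its accumbens-projecting libraries ran from 2.52 to 77.8 CPM. The ephrin receptors Epha6 and Epha5 fell from 177 ± 50.8 CPM to 50.5 ± 16.4 CPM and from 121 ± 17.9 CPM to 48.2 ± 7.96 CPM (adjusted p = 0.0158 and 0.0323). Unc5d kept its call whichever library was left out, while Nrp1 and Epha5 lost theirs in all 6 omissions. Slit2 lost its call in all but that of amygdala-projecting replicate 2, and Epha6 without ventral replicate 1 or 2 or amygdala-projecting replicate 2 or 3.

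Extracellular matrix genes had 4 of 36 tested members higher and 1 lower (13.9% called, against 2.38% of all genes), with a median of -0.32. Spock1, the proteoglycan testican-1, stood at 506, 763 and 568 CPM in amygdala-projecting and 141, 54.4 and 148 CPM in ventral libraries (log2 fold change 2.43 ± 0.34 SE, edgeR adjusted p = 0.000866). Spon1, F-spondin, rose from 265 ± 35 CPM to 635 ± 26.7 CPM (adjusted p = 0.00535), and Col5a1, a fibrillar collagen chain, from 2.79 ± 0.800 CPM to 28 ± 9.75 CPM (adjusted p = 0.00618). Gpc3, a glypican that binds growth factors at the cell surface, stood at 113, 17 and 57.4 CPM against 0.376, 0.181 and 7.28 CPM (23.2-fold, adjusted p = 0.0325), with amygdala-projecting replicate 2 well below the other two. Of its 67 ventral reads, 63 came from ventral replicate 3. Matn2, a matrilin, fell from 115 ± 15.8 CPM to 43.2 ± 5.59 CPM (adjusted p = 0.0251). Spock1 kept its call whichever library was left out. Spon1 lost it without ventral replicate 2, Col5a1 without ventral replicate 1 or 2, Gpc3 without either of these or amygdala-projecting replicate 1 or 3, and Matn2 in all 6 omissions.

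Kdr, the VEGF receptor VEGFR2 that endothelial cells are known for, stood at 66.7, 31.3 and 95.9 CPM in amygdala-projecting and 0, 0 and 3.35 CPM in ventral libraries, with 42.7, 10.6 and 52.7 CPM in cells that project to the accumbens (54.7-fold against ventral, edgeR adjusted p = 0.0113). The 12 endothelial markers summed to 59.6 to 108 CPM in amygdala-projecting and 2.63 to 9.47 CPM in ventral libraries. Without Kdr the other 11 summed to 12.1, 28.3 and 12.4 CPM against 2.63, 4.89 and 6.12 CPM. Cldn5, Cdh5, Slco1a4, Ly6c1, Abcb1a and Tie1, which define brain endothelium, had no read in any of the 6 libraries. Of the other 5 markers 3 were tested, and Kdr was the only one of the list called. All 29 ventral reads of Kdr came from ventral replicate 3, so the fold rests on that library, and the log2 fold change of 5.77 was 3.46 by limma on log2(FPKM + 1). Kdr lost its call without amygdala-projecting replicate 3 or ventral replicate 2.

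Synaptic release genes had 7 of 44 tested members higher and 1 lower (18.2% called, against 2.38% of all genes), with a median of 0.28. Vamp2, the vesicle SNARE synaptobrevin 2, stood at 1761, 1920 and 1977 CPM in amygdala-projecting and 615, 555 and 644 CPM in ventral libraries. Its log2 fold change of 1.65 ± 0.13 (SE) had the smallest adjusted p of all genes (edgeR, 2.21e-05). Syn1, synapsin I, which tethers vesicles, stood at 2174, 2304 and 1861 CPM against 692, 681 and 693 CPM (log2 fold change 1.63 ± 0.16 SE, adjusted p = 4.31e-05). Slc17a7, the vesicular glutamate transporter VGLUT1, stood at 1707, 1891 and 2262 CPM against 751, 651 and 679 CPM (log2 fold change 1.5 ± 0.22 SE, adjusted p = 0.00110), and Rab3c, a vesicle GTPase, at 4912, 3721 and 4544 CPM against 1629, 1813 and 2227 CPM (log2 fold change 1.23 ± 0.17 SE, adjusted p = 0.000988). The groups did not overlap in any of these 4 genes. On the authors' FPKM scale, which also divides by transcript length, the mean of Vamp2 was 991 in amygdala-projecting and 328 in ventral cells, that of Slc17a7 765 and 270, and that of Syn1 753 and 249. Sv2b, a synaptic vesicle glycoprotein, moved the other way, from 2237 ± 83.2 CPM in ventral to 1138 ± 176 CPM in amygdala-projecting cells (adjusted p = 0.000992). All 5 genes kept their call whichever library was left out, and 6 or 7 members of the list were called higher in each of the 6 omissions.

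**Figure D3:**
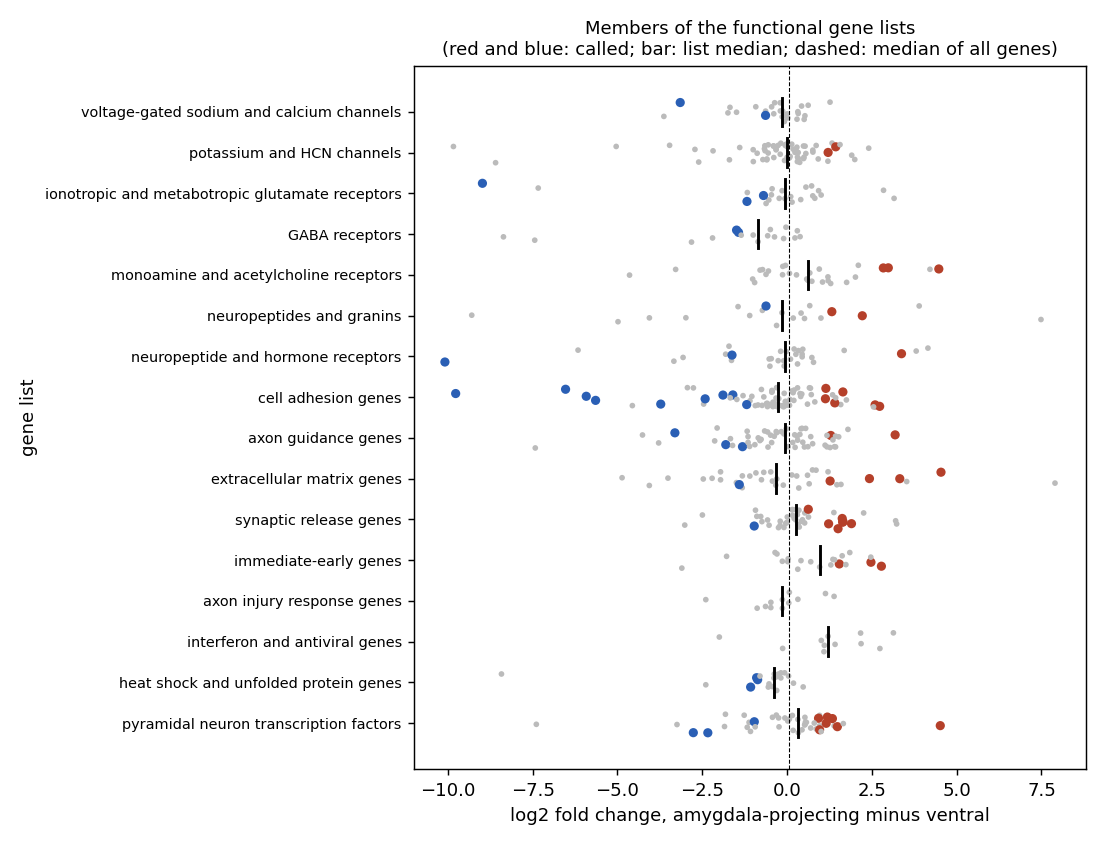
The x axis gives the log2 fold change, amygdala-projecting minus ventral, and each row is 1 list of genes, with a point for each member tested (vertical scatter is random), coloured where called. Black bars are list medians, which run from -0.85 (GABA receptors) to 1.21 (interferon and antiviral genes) beside the dashed line at 0.07 for all genes.

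Transcription factors of pyramidal neurons had 7 of 45 tested members higher and 3 lower (22.2% called, against 2.38% of all genes), with a median of 0.34. Lmo4, a LIM-domain co-regulator, stood at 714, 482 and 742 CPM in amygdala-projecting and 238, 213 and 246 CPM in ventral libraries (log2 fold change 1.48 ± 0.22 SE, edgeR adjusted p = 0.00137). Foxp1, a forkhead repressor, stood at 626, 646 and 569 CPM against 287, 264 and 262 CPM (log2 fold change 1.19 ± 0.18 SE, adjusted p = 0.00154). The groups did not overlap for either gene. Nfix, of the nuclear factor I family, and Lmo3 rose from 196 ± 20.3 CPM to 432 ± 89.7 CPM and from 199.6 ± 62.5 CPM to 501 ± 143 CPM (adjusted p = 0.00702 and 0.00762). Rorb, described above, is also in this list. Mef2c, an activity-regulated factor that limits synapse number, and Neurod6, a pyramidal neuron bHLH factor, fell from 24.4 ± 6.69 CPM to 3.55 ± 2.30 CPM and from 368 ± 64.2 CPM to 188 ± 6.04 CPM (adjusted p = 0.0428 and 0.0490). For Mef2c and Neurod6 the amygdala-projecting mean was the lowest of the 10 CA1 groups. Accumbens-projecting means were 24.7 ± 11.4 CPM of Mef2c and 223 ± 79.3 CPM of Neurod6. Lmo4 and Foxp1 kept their call whichever library was left out. Nfix and Lmo3 lost it without ventral replicate 1 or 2, Lmo3 also without amygdala-projecting replicate 3. Mef2c lost it in all omissions but that of amygdala-projecting replicate 3 and Neurod6 in all 6.

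Of 21 immediate-early genes tested 3 (14.3%, against 2.38% of all genes) were called, all higher, with a median of 0.96. Egr1, a zinc-finger factor induced by synaptic activity, stood at 259, 336 and 488 CPM in amygdala-projecting and 117, 148 and 110 CPM in ventral libraries (log2 fold change 1.54 ± 0.23 SE, edgeR adjusted p = 0.00156). Its amygdala-projecting mean was the ninth of the 10 CA1 groups and the ventral mean the lowest. Egr4 and Nptx2, a secreted pentraxin that gathers AMPA receptors, rose from 5.06 ± 2.57 CPM to 28.1 ± 11.1 CPM and from 10.5 ± 1.53 CPM to 71.7 ± 45.8 CPM (adjusted p = 0.0219 and 0.0251). Fos, the best known of the list, stood at 14.5, 12 and 9.48 CPM against 4.64, 1.99 and 3.35 CPM and was not called (adjusted p = 0.207, named after its values were seen). Of 21 heat shock and unfolded protein genes 3 (14.3%) were called, all lower, with a median of -0.38. Hspa5, the chaperone BiP of the endoplasmic reticulum, fell from 321 ± 12.9 CPM to 152 ± 38.3 CPM (adjusted p = 0.0153), and the cytosolic chaperone genes Dnaja1 and Hsph1 by 0.87 and 0.90 on the log2 scale (adjusted p = 0.0179 and 0.0187). Egr1 kept its call whichever library was left out. Egr4 lost it without ventral replicate 2 or 3 or amygdala-projecting replicate 3, Nptx2 in all omissions but that of amygdala-projecting replicate 2, Hspa5, Dnaja1 and Hsph1 in all but that of amygdala-projecting replicate 1.

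Genes of axon injury and of the antiviral response gave no call in edgeR, while 2 of 12 axon injury genes and 0 of 11 interferon and antiviral genes had an unadjusted p under 0.05. DESeq2 and limma's voom each called 1 axon injury gene and no interferon gene. Of 12 axon injury genes tested, Gap43, a growth cone protein, stood at 581, 402 and 516 CPM in amygdala-projecting and 478, 482 and 494 CPM in ventral libraries (log2 fold change 0.05 ± 0.18 SE, adjusted p = 0.954). Nefl, the light neurofilament, stood at 499.5, 307 and 255 CPM against 606, 539 and 509 CPM (log2 fold change -0.63 ± 0.22 SE, adjusted p = 0.176). The groups overlapped for Gap43 and did not for Nefl. The 11 interferon and antiviral genes tested had a median log2 fold change of 1.21, and of 0.68 without amygdala-projecting replicate 3. The groups did not overlap in 5 of them, all with amygdala-projecting cells higher, against 25.7% of all genes in either direction. Stat2, which carries interferon signals to the nucleus, stood at 31.2, 31.9 and 68.9 CPM against 27.1, 24.5 and 10.5 CPM (adjusted p = 0.386), and amygdala-projecting replicate 3 was the highest of its group.

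Messenger RNAs encoded by the mitochondrial genome, a group looked at after their values were seen, had higher levels in every amygdala-projecting library than in any ventral one. Of 12 tested, 11 were called, mt-Atp8 being the exception, and the groups did not overlap in all 12, against 25.7% of all genes, with a median log2 fold change of 1.67 and a range of 1.08 to 2.58. Transcripts mt-Nd5 and mt-Co2, for subunits of complex I and of cytochrome c oxidase, stood at 4790, 3710 and 3300 CPM against 1000, 1010 and 1310 CPM and at 1630, 1400 and 1290 CPM against 296, 324 and 463 CPM (edgeR adjusted p = 2.31e-05 for each). The ribosomal RNA mt-Rnr2 differed less, by a log2 fold change of 0.70 ± 0.10 (SE) with an adjusted p of 0.000866. All transcripts of the mitochondrial genome made up 16.6% to 20.2% of gene reads in amygdala-projecting, 11.3% to 12.9% in ventral, 15.4% to 16.8% in accumbens-projecting, a mean of 12.6% ± 1.16 in postsubiculum-projecting and 9.57% ± 0.160 in dorsal cells (SD, n = 3 each). Accumbens-projecting cells held 2870, 3870 and 3600 CPM of mt-Nd5, which overlapped the amygdala-projecting libraries and lay above the ventral ones. In the dorsal pair 9 of the 12 were higher in postsubiculum-projecting cells, with a median log2 fold change of 1.32. In that pair the interaction described below was called for 2 of the 12. With all transcripts of the mitochondrial genome left out before scaling, 294 genes were called, all of them among the 309. Of those 309, 13 were themselves transcripts of the mitochondrial genome and could not be called in that fit.

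**Figure D4:**
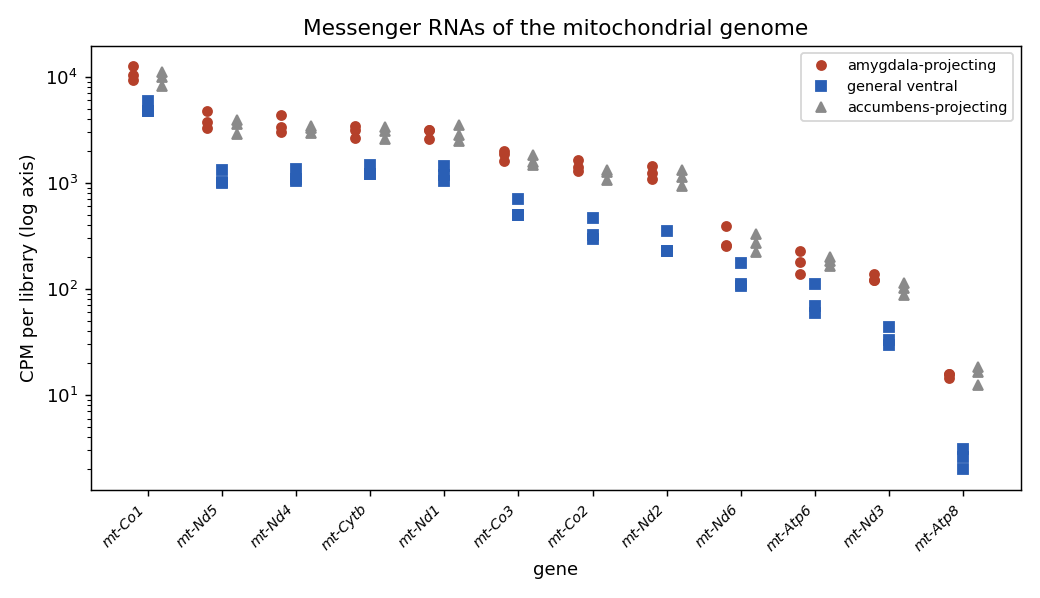
CPM of the 12 mitochondrial messenger RNAs (log axis) in 3 libraries each of amygdala-projecting (red circles), general ventral (blue squares) and accumbens-projecting cells (grey triangles). In every gene the 3 red circles lie above the 3 blue squares, and for mt-Nd5 red runs from 3300 to 4790 CPM and blue from 1000 to 1310 CPM.

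In the same 9-library fit 3 genes were called between amygdala- and accumbens-projecting cells (0.0231% of those tested), and 1193 had an unadjusted p under 0.05. All 3 were lower in amygdala-projecting cells, and all 3 are ranked genes of the comparison with ventral cells: Alcam at 125, 122 and 22.4 CPM in accumbens-projecting libraries, Dlk1 at 15.4, 177 and 11.2 CPM and Grm2 at 18.1, 3.94 and 17.1 CPM (edgeR adjusted p = 0.0162 for each). The log2 fold change of Alcam, amygdala- minus accumbens-projecting, was -3.54. No accumbens-projecting library overlapped the amygdala-projecting ones for these genes, although accumbens-projecting replicate 2 held most of the Dlk1. Without amygdala-projecting replicate 2 or 3 no gene was called, while 1473 and 1313 had an unadjusted p under 0.05. The comparisons with ventral and with accumbens-projecting cells share the amygdala-projecting libraries. The spread among accumbens-projecting libraries was wide, with a median SD of 0.68 on the log2 scale, and a gene not called between these groups is not shown to be alike in them.

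Placed among the 10 CA1 groups, amygdala-projecting cells had the highest mean for 133 of the 207 genes called higher in them and the lowest for 64 of the 102 called lower. Ventral cells were the lowest of the 10 for 45 of the 207 and the highest for 27 of the 102. All these genes were chosen by a difference between amygdala-projecting and ventral cells, which favours such ranks. The share over all genes tested was not computed. For Kdr, Gpc3 and Tacr3 every CA1 group other than amygdala-projecting, accumbens-projecting and ventral cells had a mean under 1 CPM. For Egr1 and Lsamp the ventral mean was the lowest of the 10 and the amygdala-projecting mean lay within the range of the others.

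The dorsal pair bears on whether cells chosen by another projection differed from general cells of their region in these genes. Amygdala-projecting, ventral, postsubiculum-projecting and dorsal libraries were fitted together (12 libraries, an alternative chosen after seeing the data), which gave 1083 calls for amygdala-projecting against ventral cells (7.87% of 13767 genes tested) and 821 (5.96%) for postsubiculum-projecting against dorsal cells. Of the 207 genes higher in amygdala-projecting cells, 68 were called higher in postsubiculum-projecting cells (2.23% of all genes were) and 7 in dorsal cells (3.73%). Of the 102 lower genes, 2 were higher in postsubiculum-projecting and 25 in dorsal cells. The median log2 fold changes of these genes in the dorsal pair were 0.43 and -0.34, and 0 over all genes. The difference between the pairs, tested as an interaction, was called for 545 genes (3.96%), among them 83 of the 207 and 54 of the 102, which were chosen by a contrast that is itself 1 side of this difference.

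Syn1, Lmo4 and Egr1 rose in both pairs, with log2 fold changes of 1.35, 1.03 and 1.00 in the dorsal pair (edgeR adjusted p = 3.04e-06, 0.00110 and 0.0166), and Hspa5, Dnaja1 and Hsph1 fell in both, by 1.31, 0.64 and 0.96 on the log2 scale in the dorsal pair (adjusted p = 0.00126, 0.0193 and 0.00119). The interaction was not called for any of these 6. Alcam, by contrast, had a log2 fold change of 0.14 in the dorsal pair, and the pairs differed (interaction adjusted p = 1.96e-08). Dlk1 went opposite ways, with 4.77 in the dorsal pair (adjusted p = 0.00104, interaction 9.68e-06). Gabrb2 and Nrp1 had 0.26 and 0.59 there (interaction adjusted p = 3.22e-05 and 2.73e-05). Rab3c and Slc17a7 had -0.002 and 0.33 (interaction adjusted p = 0.000642 and 0.00109).

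**Figure D5:**
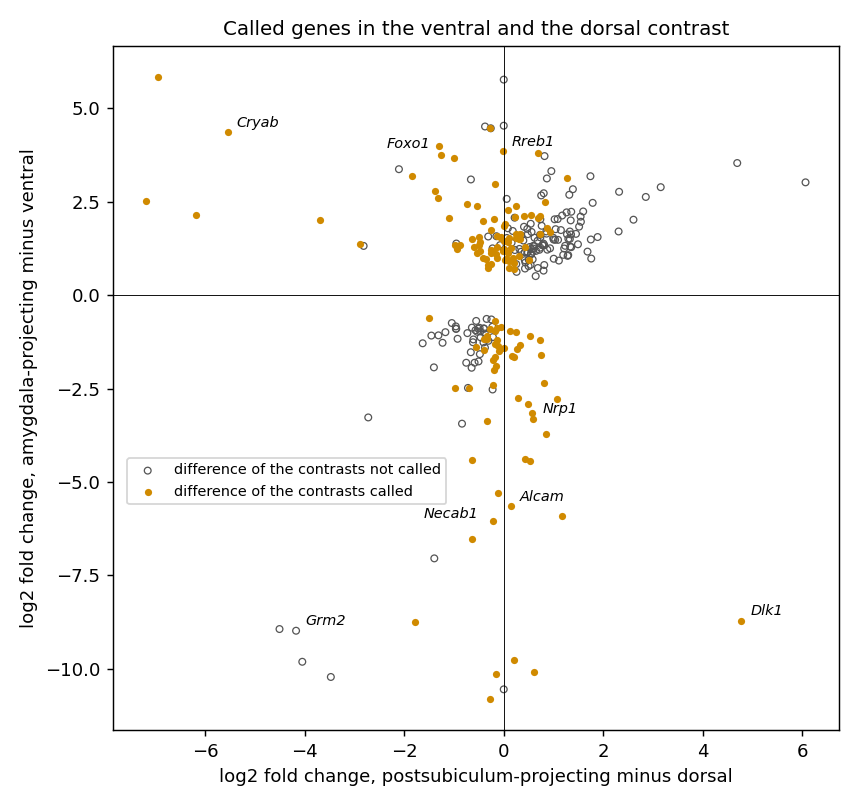
Each point is 1 of the genes called between amygdala-projecting and ventral cells, with its log2 fold change there on the y axis and that of postsubiculum-projecting minus dorsal cells on the x axis. Filled points mark the genes for which the 2 contrasts differed, among them Alcam at -5.64 against 0.14 and Dlk1 at -8.72 against 4.77.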

How the data were processed

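Neurons were sorted by hand under fluorescence from dissected slices, ERCC spike-in RNA was added, and cDNA was amplified with an Ovation kit, per the labels' protocols. The authors deposited whole-number read counts per Ensembl gene for 48 libraries and FPKM values per gene and replicate. Per the submitters' processing notes, the builds were mm9 and NCBIM37 and the tools included HTSeq, DESeq2, Cuffdiff 2.1.1 and TopHat2 2.0.6, whose roles are not given. Whether counting used strand, and the kit's strand marking, are not given in the sources used here, so reads of overlapping and antisense genes and of near-identical copies cannot be told apart. Columns of the count table carry replicate numbers that differ from the titles and were used by group only. The 92 ERCC entries and 5 summary lines were left out. Reads outside genes made up 20.8% to 32.8% of the reads of these 6 libraries.

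The counts of the 9 libraries of the 3 ventral groups were fitted in R 4.3.3 with edgeR 4.0.16 (TMM scaling, the default expression filter, robust quasi-likelihood test), with 6 residual and a median of 9.35 prior degrees of freedom. A gene was called at a Benjamini-Hochberg adjusted p under 0.05 over all genes tested, and standard errors are the log2 fold change divided by the root of F. Symbols came from a separate gene name reference of another genome build, matched by Ensembl ID. It named 32897 of 37620 gene IDs, and 745 of 750 genes of the 34 lists were found. Members and lists were chosen with earlier results of these data known. Genes named were the 15 per direction with the largest fold change among called genes of at least 10 CPM, with groups that did not overlap, leaving out predicted, ribosomal, mitochondrial and sex-linked genes. From each functional list up to 4 called members per direction with the smallest p were added, or the 2 most abundant where fewer than 2 were called. A few genes that the rule names are not reported here. Genes outside this rule are marked where they appear.

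Alternatives covered the libraries fitted, scaling, filters, DESeq2 1.42.0, limma 3.58.1 (voom with sample weights, and log2(FPKM + 1) for genes of at least 1 FPKM), a replicate block and each library left out. Deviations of same-numbered libraries from their group means correlated at -0.047 to 0.029 between groups. Differently numbered libraries were not compared, so these values cannot show whether same-numbered libraries share an animal or a preparation. Replicates of a group differed by 13 to 136 times the chi-square of counting noise per degree of freedom, so no pair was merged into 1 sample. That does not show separate animals or cultures. On simulated counts of the comparison with ventral cells (12574 genes), 65% of 100 genes changed 4-fold and 68% of 100 changed 8-fold were recovered, none with the wrong sign, beside 6 false calls. The changed genes were not drawn from the least abundant ones, and the simulated spread was the same in every group. In the data the spread was wider in amygdala-projecting than in ventral cells, so these figures need not hold for the comparison itself. Depth of 5116568 to 20907590 reads limits genes near 0, for which a floor of 3 reads per library was used.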

Additional observations from a re-analysis of the deposited data

Results flagged for a closer look

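For 43 of the 73 named genes called, the difference between amygdala-projecting and ventral cells was itself different from that between postsubiculum-projecting and dorsal cells. The test was the interaction term of the 12-library edgeR fit, adjusted over 13767 genes, of which 545 (3.96%) were called. The genes had been called in a contrast that is 1 side of the interaction, which favours this count, and the pairs share no library.

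Among adhesion and guidance genes the interaction adjusted p was 1.96e-08 for Alcam, 0.00137 for Cntnap5b, 0.000188 for Cntnap2, 0.000630 for Chl1, 0.00466 for Cdh7, 0.00174 for Lsamp, 0.00647 for Lrrtm3, 2.73e-05 for Nrp1, 0.0116 for Epha5 and 0.0155 for Slit2. Cntnap2 had log2 fold changes of -2.41 in the ventral and -0.21 in the dorsal pair, and Chl1 had -1.19 and -0.14. Lsamp had 1.13 and 0.09. Among matrix genes the interaction adjusted p was 0.0342 for Spock1, 0.00186 for Spon1 and 0.00857 for Matn2.

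Among receptors and channels it was 0.00137 for Htr2a, 0.0129 for Chrna4, 0.00834 for Hcrtr2, 0.00546 for Nr3c1, 0.0262 for Grin2a, 0.00806 for Gria2, 3.22e-05 for Gabrb2, 0.00784 for Cacng3 and 0.0117 for Kcng1. Nr3c1 had log2 fold changes of -1.62 in the ventral and 0.16 in the dorsal pair. Among genes of release, peptides and synaptic pentraxins it was 0.00222 for Vamp2, 0.000642 for Rab3c, 0.00109 for Slc17a7, 0.0103 for Cpe, 0.000696 for Nptx2 and 0.0117 for Nptxr. Vamp2 had log2 fold changes of 1.65 and 0.73 (adjusted p = 0.000463 in the dorsal pair).

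Among transcription factors and co-activators it was 0.0116 for Rreb1, 0.0122 for Foxo1, 0.00109 for Eya1, 0.0251 for Mef2c and 0.0358 for Neurod6. The remaining ranked genes were Cryab (0.00752), Phlda1 (0.0171), Gng4 (0.00244), Alox12b (0.000642), Popdc3 (0.0248), Dlk1 (9.68e-06), Necab1 (0.0148), Arhgef26 (0.0136), Evc2 (0.00663) and Tmem255a (0.00256), each with its interaction adjusted p.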

How the results depend on the processing

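The count of called genes moved with the libraries in the fit and with the tool, and no gene called both in the 9-library edgeR fit and under an alternative changed sign. Against 309 calls (207 higher in amygdala-projecting and 102 in ventral cells, 137 at least 3-fold), a fit of the 6 libraries alone gave 570 (330, 240 and 239). All 48 libraries in 1 fit gave 926 (423, 503 and 401), and the 12-library fit chosen after seeing the data 1083 (514, 569 and 380). Without a low-count filter the counts were 662 (401, 261 and 325), with DESeq2 932 (519, 413 and 464), and with limma's voom and sample weights 728 (482, 246 and 280). On log2(FPKM + 1), limma called 192 (134 and 58). The share of calls higher in amygdala-projecting cells was 67.0% and fell to 45.7% with all 48 libraries, 47.5% with 12 and 55.7% with DESeq2. Leaving out 1 library gave 100 to 243 calls, 72 to 160 of them higher in amygdala-projecting and 28 to 83 in ventral cells, and 62 to 126 at least 3-fold. With the replicate number as a block 322 were called, 281 of them among the 309, in samples not known to share more than a number. RLE scaling, upper-quartile scaling, a stricter filter and removal of mitochondrial transcripts kept the count within 1.5 times.

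Between amygdala- and accumbens-projecting cells, 3 calls became 354 with all 48 libraries, 180 without a filter, 381 with DESeq2, 1 with voom, 1 with the replicate block and 0 with limma on FPKM (1029 at an unadjusted p under 0.05), and 0 to 3 with 1 library left out. Of 73 named genes called, all 73 kept their direction in every alternative that gave a value, 27 kept the call in every omission of a library and 18 in every alternative. With all 48 libraries in 1 fit 14 of the 73 lost their call, Grp and Col5a1 among them. In the 12-library fit 2 lost it, Grp and Col5a1 (edgeR adjusted p = 0.284 and 0.0637). Of the named genes that were not called, Gap43 changed sign with upper-quartile scaling (log2 fold change -0.009) and without amygdala-projecting replicate 1 (-0.078), with a highest value of 0.183 over the omissions. With 1 library left out, the list medians of potassium and HCN channels (-0.153 to 0.096), glutamate receptors (-0.197 to 0.169) and peptide and hormone receptors (-0.281 to 0.104) crossed 0. The cause of these changes was not tested.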

Other observations

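Genes outside the naming rule, picked after their values were seen, were also called between amygdala-projecting and ventral cells. Nrgn, neurogranin, a calmodulin-binding protein of dendritic spines, stood at 771, 1130 and 795 CPM in amygdala-projecting and 168, 194 and 266 CPM in ventral libraries (log2 fold change 2.12 ± 0.21 SE, edgeR adjusted p = 5.63e-05). Basp1, a membrane protein of growth cones and synaptic terminals, stood at 1230, 991 and 1180 CPM against 338, 357 and 413 CPM (log2 fold change 1.63 ± 0.15 SE, adjusted p = 2.31e-05). Prkaca, the catalytic subunit of protein kinase A, stood at 447, 644 and 558 CPM against 116, 106 and 163 CPM (log2 fold change 2.11 ± 0.23 SE, adjusted p = 9.69e-05). The groups did not overlap for these 3 genes. Camk2n1, an inhibitor of calcium/calmodulin kinase II, Celf4, an RNA-binding protein of excitatory neurons, Atp1b2, a subunit of the sodium pump, and Sulf2, a heparan sulfatase, rose by 1.34, 1.25, 1.97 and 2.14 on the log2 scale (adjusted p = 0.000265, 0.000256, 0.000173 and 0.000292). Csdc2, an RNA-binding cold shock domain protein, stood at 110, 177 and 135 CPM against 11.3, 12.3 and 24.6 CPM (adjusted p = 0.000243). Ryr2, the calcium release channel of intracellular stores, moved the other way, at 126, 143 and 180 CPM against 559, 522 and 409 CPM (log2 fold change -1.72 ± 0.21 SE, adjusted p = 0.000292).

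In 2 further peptide genes 1 group was at or near 0, and neither passed the test. Tac1, the precursor of substance P, stood at 12.8, 8.3 and 7.57 CPM in amygdala-projecting and 0.125, 0 and 0 CPM in ventral libraries (edgeR adjusted p = 0.0765). Nts, the neurotensin precursor, had no read in amygdala-projecting libraries and stood at 7.77, 3.26 and 6.47 CPM in ventral ones (adjusted p = 0.0695).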
